A study of Brassica napus and Camelina sativa and Thlaspi arvense with 24 samples.

Results

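The expressed genes of the C subgenome of *Brassica napus* were described in leaves and cotyledons of the lines N99 and DH12075. A C gene was an annotated gene whose ID places it on 1 of the 9 chromosomes C01 to C09, and it was counted as expressed at a mean of at least 1 TPM in either line. TPM is the share of a library's transcripts that belongs to a gene, scaled so that each library sums to 1000000. By this rule 22364 of 64015 annotated C genes (34.9%) were expressed. The 47750 annotated genes of the A subgenome (chromosomes A01 to A10) were measured in the same libraries and served as the reference, and 21296 of them (44.6%) passed the same rule. Over all 123329 genes of the tables, which include 11564 genes placed on neither subgenome, 45801 (37.1%) passed.

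*B. napus* (oilseed rape) is an allotetraploid that arose when *B. rapa*, the donor of the A subgenome, crossed with *B. oleracea*, the donor of the C subgenome. Most of its genes therefore have a related copy on the other subgenome, called a homoeologue, and both parents already carried several copies of many genes that are single in *Arabidopsis thaliana*. Homoeologous chromosomes can pair at meiosis in this species and exchange segments, so that lines can differ in how many copies they carry of a C segment and of its A counterpart.

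RNA was sequenced from first true leaves and fully expanded cotyledons of seedlings grown in a chamber, in N99 and in DH12075. There were 3 biological replicates for each line and tissue, which gave 4 groups and 12 libraries. No treatment was applied, and the labels name no transgene or mutation in either line. Both lines were quantified against the transcripts of DH12075, so an N99 transcript that differs from them, or that DH12075 lacks, can be listed too low or not at all. In such bulk samples, fewer cells of a type and less RNA per cell cannot be told apart. TPM keep no read numbers, so the depth of the libraries is unknown and no counting interval is given.

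The labelled green tissue was checked with 5 photosynthesis genes, of which only PSAK (a subunit of photosystem I) was traced to C copies. Its copy BnaC03g082540.3DH ranged from 885 to 1473 TPM in N99 and 1157 to 1520 TPM in DH12075. Of 4 genes of seeds and flowers, only CRU2 (a seed storage protein) had a C copy, at no more than 0.1 TPM in N99 and 0.297 TPM in DH12075.

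In 2 N99 libraries, C genes stood apart before any contrast was made. In N99 cotyledon 2, the 10 most abundant genes held 37.1% of all TPM, against 7.98% to 11.9% in the other 11 libraries. The C genes BnaC02g051160.3DH, BnaC09g025290.3DH and BnaC09g025280.3DH reached 98811, 67611 and 59906 TPM there, while in the other 5 N99 libraries the first ranged from 1398 to 2962 TPM. The C share of TPM in that library was 57.1%, and it was 48.4% once the 10 most abundant genes were left out, within the 47.0% to 48.5% of the other 11 libraries treated likewise. The second is N99 leaf 3, in which genes of chromosome C02 alone were low. Some of the counts that these libraries change are also given without them.

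The fraction of annotated genes that was expressed was lower on C than on A in every library. At 1 TPM or more in a single library were 28.5% to 31.8% of the C genes, against 37.0% to 40.7% of the A genes, and C minus A was -10.1 to -8.43 percentage points, below 0 in 12 of 12 libraries. N99 cotyledon 2 held the lowest value of both subgenomes. In line means, N99 expressed 20019 C genes (31.3%) and DH12075 19962 (31.2%), against 19451 (40.7%) and 19452 (40.7%) of the A genes. Because C carries more annotated genes, it made up 51.9% of the annotation and 48.8% of the expressed genes, against 38.7% and 46.5% for A. No test was made of these shares, since genes of one library are not replicates.

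Many annotated C genes were listed at 0. A count of 23123 C genes (36.1%) was at 0 TPM in all 12 libraries and is called silent here, against 12087 A genes (25.3%). A further 18528 C genes (28.9%) and 14367 A genes (30.1%) had some signal but no line mean of 1 TPM. So the C deficit in expressed genes, 9.66 percentage points, stood beside an excess of silent genes and not of weakly expressed ones. The threshold cuts through a dense range: 551 C genes had a higher line mean of 0.9 to 1 TPM and 479 of 1 to 1.1 TPM. The last gene outside, BnaC08g031030.3DH, averaged 0.855 TPM in N99 and 0.999988 TPM in DH12075, and the first inside, BnaC03g037710.3DH, averaged 1.00006 TPM in N99 and 0 TPM in DH12075.

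The difference held on every chromosome. The share expressed was highest on C03, with 3773 of 9962 genes (37.9%), and lowest on C02, with 1943 of 6179 (31.4%). The other 7 C chromosomes lay between 33.1% (C04) and 35.5% (C05). All 9 C chromosomes were below the lowest A chromosome, A02, at 40.1%. Silent genes made up 33.7% (C03) to 38.3% (C02) of a C chromosome, against 22.5% to 29.3% of an A chromosome. Pooled over the C chromosomes, the ends were richer in expressed genes than the middle. With each chromosome divided into 10 equal parts of its genes in ID order, 41.1% of the first part, 28.7% of the sixth and 42.7% of the last were expressed, against 50.1%, 40.8% and 47.5% on A. Single chromosomes differed: the first 5 windows of 100 genes held 23.2%, 25.4% and 28.6% expressed genes on C06, C07 and C08, below the medians of 33.5%, 35.5% and 35.5% over all windows of these chromosomes. Over all such windows of consecutive genes the C range was wide. It ran from 4% in window 72 of C03 and 7% in window 40 of C02 to 66% in window 1 of C05 and 67% in window 72 of C09.

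Expressed C genes were also slightly less abundant than expressed A genes. The median of the higher line mean was 5.39 TPM on C (quartiles 2.50 and 13) against 5.64 TPM on A, and the C median was below the A median in 12 of 12 libraries. In N99, 14517 C genes (22.7% of those annotated) averaged 1 to 10 TPM, 4955 (7.74%) 10 to 100 TPM, 491 (0.77%) 100 to 1000 TPM and 56 more than that. The same classes held 28.9%, 10.7% and 1.02% of the A genes and 53 genes at the top. DH12075 gave 22.3%, 7.89% and 0.89% for C with 49 genes at 1000 TPM or more, against 28.3%, 11.1% and 1.25% for A with 45. At 10 TPM or more were 5502 C genes (8.59%) in N99 and 5669 (8.86%) in DH12075, against 5630 (11.8%) and 5943 (12.4%) of A. As a percent of annotated genes, C was below A in every class above 0, the class at 1000 TPM or more included (0.0875% against 0.111% in N99 and 0.0765% against 0.0942% in DH12075).

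**Figure D1:**
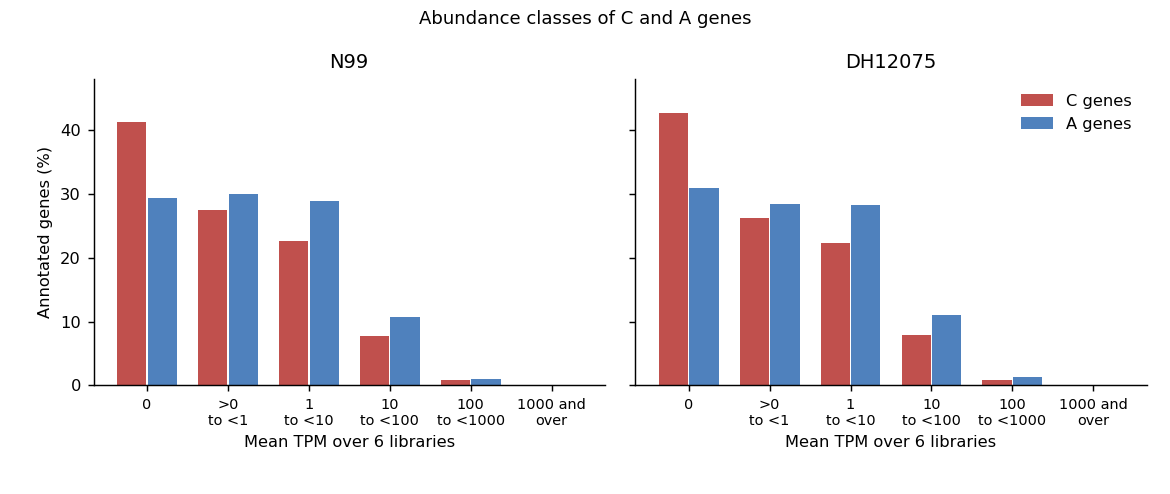
Percent of annotated C and A genes in classes of mean TPM over the 6 libraries of a line, N99 and DH12075 in separate panels. The class at 0 holds 41.2% of C and 29.3% of A genes in N99, and every class from 1 to 1000 TPM holds a smaller percent of C than of A genes.

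A few genes carried much of the C transcript pool. The 56 C genes at 1000 TPM or more held 36.6% of the C transcripts in N99, and the 49 in DH12075 held 26.8%, against 29.5% and 25.2% for the A genes of that class. The N99 values without N99 cotyledon 2 were 32.8% for 62 C genes and 31.1% for 59 A genes. The most abundant was BnaC04g049370.3DH, at 30147, 29914 and 27728 TPM in N99 leaf, 23174, 12090 and 13852 TPM in N99 cotyledon, 26272, 26016 and 28382 TPM in DH12075 leaf and 20197, 22156 and 18893 TPM in DH12075 cotyledon. Every leaf library was above every cotyledon library of its line. It rose in leaf in DH12075 (log2 fold change 0.40 ± 0.07 SE, limma, adjusted p = 0.0038). In N99, with N99 cotyledon 2 included, it rose too (0.90 ± 0.26, limma, adjusted p = 0.013). BnaC04g049280.3DH averaged 9883 ± 3303 TPM in N99 and 14112 ± 2018 TPM in DH12075 (SD, n = 6 each). The other abundant C genes of DH12075 were BnaC04g069590.3DH and BnaC04g053550.3DH, at means of 6085 and 4895 TPM. The files do not pair these IDs with a gene name. In N99 the 3 genes after BnaC04g049370.3DH were those that peaked in N99 cotyledon 2, so their rank rests on 1 library. All 4 genes of DH12075 lie on C04, and C04 held 8.72% to 11.7% of TPM in the 11 libraries other than N99 cotyledon 2. It was the largest C chromosome by this measure except in N99 cotyledon 3, where C03 held 8.92%.

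Each gene was then tested with limma (a linear model that shares the spread between genes) on log2(TPM + 1), with Benjamini-Hochberg adjustment over all tested genes of the table and a threshold of 0.05. Fold changes on this scale understate the change of genes near 1 TPM. The first question was how leaf and cotyledon differ in each line. In N99, 3291 of 20019 C genes rose in leaf (16.4%, against 17.2% of all genes tested) and 2500 fell (12.5%, against 12.2%). In DH12075, 4096 of 19962 C genes rose in leaf (20.5%, against 20.8% of all) and 5961 fell (29.9%, against 29.5%). The A genes gave 18.1% and 12% in N99 and 21.7% and 29.8% in DH12075. The C shares were therefore near the background in both directions. Among the 17617 C genes tested in both lines, 2040 rose in leaf in both, which is 69.4% of those that rose in N99 and 56.2% of those that rose in DH12075. Another 1447 fell in both (70.9% and 27.7%) and 198 were called in opposite directions. Called the same way in both lines were 19.8% of these C genes, against 20.5% of the A genes and 19.9% of all genes tested in both, so the C share was near the background.

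The balance of directions in N99 rested on N99 cotyledon 2. Without that library, 2148 C genes rose in leaf and 2986 fell, and over all genes 4693 rose and 6036 fell. With N99 leaf 3 left out instead, 2290 C genes rose and 1947 fell. With all libraries rescaled over the genes outside the 10 most abundant of each, 3502 C genes rose and 4339 fell, and the median of all genes moved by -0.10 (log2). The spread between replicates was also largest in N99 cotyledon: the median SD of expressed C genes was 0.17 in N99 leaf and 0.31 in N99 cotyledon, against 0.16 in DH12075 leaf and 0.13 in DH12075 cotyledon (log2, n = 3 each). In DH12075, quantile normalization gave 4993 C genes that rose and 5292 that fell.

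Tissue effects were spread evenly over the C chromosomes of DH12075, with 18.8% to 21.5% of the tested genes higher in leaf and 28.6% to 32% lower. In N99, 8 of the C chromosomes lay between 16.0% and 17.8% higher and 10.2% and 13.5% lower. C02 stood apart, with 172 of 1721 genes higher (9.99%) and 333 lower (19.3%), and a median log2 fold change of -0.22 against 0.03 to 0.07 on the other C chromosomes. This rested on N99 leaf 3. Without it, 198 C02 genes rose (11.3%) and 203 fell (11.6%), the median was -0.01, and the other C chromosomes had 10.6% to 12.2% higher and 8.01% to 11.1% lower. Without N99 cotyledon 2 instead, 90 C02 genes rose and 270 fell.

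**Figure D2:**
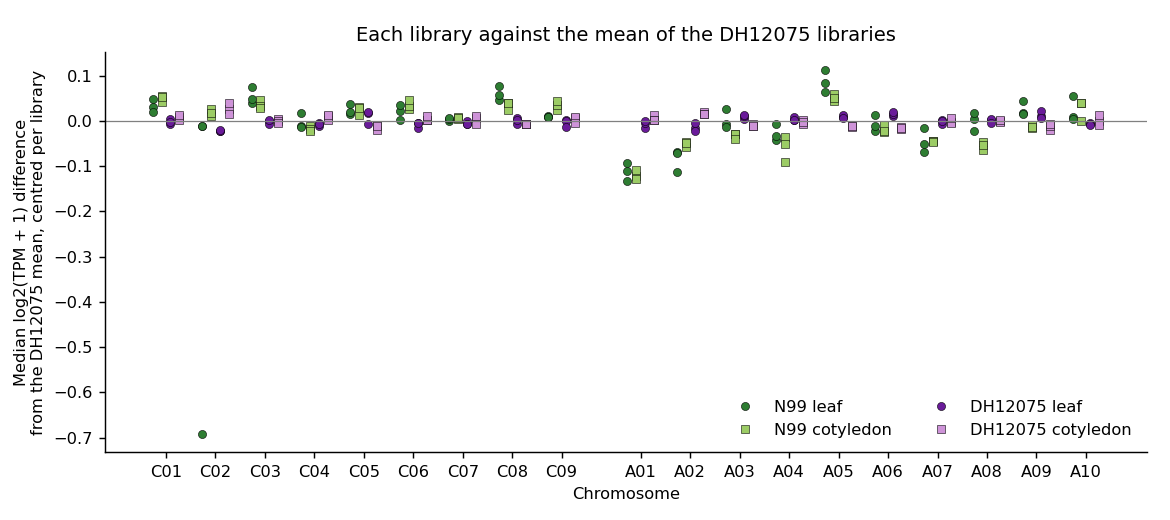
Median difference of the genes of each chromosome from the mean of the DH12075 libraries, on log2(TPM + 1) and centred per library, for the 3 libraries of each group (points). Only genes at a mean of 1 TPM or more in both lines are used, 17617 of them on C. N99 leaf 3 lies at -0.69 on C02, while C02 lies between -0.02 and 0.04 in the other 11 libraries.

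The low C02 signal of N99 leaf 3 covered the whole chromosome. Among 393 C02 genes at 10 TPM or more, the median ratio of N99 leaf 3 to the mean of N99 leaf 1 and 2 was 0.55, against 1.03 to 1.06 on the other C chromosomes and 1.0 to 1.05 on the A chromosomes. On C02, 353 of the 393 genes (89.8%) were below both other leaf libraries, against 24.3% to 30.3% on the other C chromosomes. C02 was also divided into 21 stretches of 300 annotated genes, and medians were taken over those at 1 TPM or more in both lines. These were 7 to 101 genes per stretch, with only 7 and 12 in stretches 1 and 2. N99 leaf 3 had the lowest median of the 6 N99 libraries in 21 of 21. It lay 0.54 to 0.77 (log2) below the mean of the other leaf libraries. A02, the counterpart of C02, was at -0.11 in N99 leaf 3 and between -0.07 and -0.05 in the other N99 libraries. C02 held 1.66% of TPM in N99 leaf 3, against 2.93% and 3.03% in N99 leaf 1 and 2. The cause was not tested.

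Single C genes are given next, chosen for the largest changes among genes without overlap between tissues, so that the lack of overlap in the contrast that named them is fixed by the choice. BnaC09g024050.3DH had 14.1, 18 and 8.55 TPM in leaf and no more than 0.199 TPM in cotyledon of N99, and 105, 102 and 94.3 TPM in leaf and no more than 0.349 TPM in cotyledon of DH12075. It rose in leaf in N99 (3.70 ± 0.25, limma, adjusted p = 7.2e-09) and in DH12075 (6.32 ± 0.10, adjusted p = 2.2e-06). BnaC07g061800.3DH had 53.6 to 71.7 TPM in leaf and 0.271 to 3.55 TPM in cotyledon of N99, with log2 fold changes of 4.63 in N99 and 6.21 in DH12075. BnaC09g060190.3DH (5.46 ± 0.33) and BnaC03g012330.3DH (4.96 ± 0.33) rose most in N99. BnaC03g012330.3DH was not absent from cotyledon, at 7.12 to 15.1 TPM in N99, where leaf had 258 to 467 TPM.

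Of the genes lower in leaf, BnaC03g049040.3DH had 2.27, 2.85 and 1.59 TPM in leaf and 85.3, 88.6 and 218 TPM in cotyledon of N99, and 4.25, 4.82 and 18.6 TPM in leaf and 496, 489 and 542 TPM in cotyledon of DH12075. It fell in N99 (-5.22 ± 0.33, limma, adjusted p = 4.2e-09) and in DH12075 (-5.92 ± 0.47, adjusted p = 0.00013). BnaC03g008070.3DH was at or below 0.138 TPM in all 6 leaf libraries, against 23.5 to 34.9 TPM in N99 cotyledon and 4.66 to 9.21 TPM in DH12075 cotyledon. BnaC05g002660.3DH behaved differently in the lines. It had 10.1 to 33.1 TPM in leaf and 21.7 to 29.4 TPM in cotyledon of N99, groups that overlap, and 0.17 to 1.05 TPM in leaf and 38.7 to 99.2 TPM in cotyledon of DH12075 (-5.50 ± 0.36, limma, adjusted p = 9.5e-05).

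Functions could be given only to C genes traced to an *A. thaliana* gene. Of 92 listed *A. thaliana* genes in 11 groups, 43 had at least 1 C copy among the pairs found, and these 43 had 57 C copies. Only part of the study's table of *A. thaliana* genes, 1938 genes of its first chromosome, was used here, so most copies lie on C05 and C08. The counts over these small groups are descriptions of the copies measured.

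Of 9 listed transport genes, 4 had C copies, and the copies tested were lower in leaf. In N99 all 4 tested C copies fell (median -1.21, against 0.04 for all genes), and in DH12075 all 5 did (median -1.82, against -0.08). Of all genes tested, 12.2% fell in N99 and 29.5% in DH12075. NAS3 (a nicotianamine synthase of metal transport), copy BnaC05g007580.3DH, had 16.1, 2.12 and 7.54 TPM in leaf and 50.6, 39.8 and 51.7 TPM in cotyledon of N99. In DH12075 it had 1.1, 3.76 and 8.58 TPM in leaf and 85.1, 72.3 and 68.4 TPM in cotyledon. It fell by 2.64 (log2) in N99 and by 4.05 in DH12075. Both C copies of SUC2, the sucrose transporter that loads the phloem, fell too. BnaC05g023420.3DH had 22.4 to 44.3 TPM in leaf and 64.3 to 110 TPM in cotyledon of N99, and 11 to 27.9 TPM in leaf and 51.3 to 64.6 TPM in cotyledon of DH12075. The fall was 1.17 ± 0.33 (SE) in N99 and 1.82 ± 0.32 in DH12075 for this copy, and 1.03 ± 0.33 and 1.53 ± 0.23 for BnaC07g024270.3DH. The C copy of CIPK9, a kinase of potassium signalling, fell by 1.25 and 1.44 (BnaC05g000750.3DH). Of its A copies, BnaA10g000790.3DH fell by 1.13 and 1.55, while BnaA09g068810.3DH rose by 0.58 in DH12075 and was not called in N99 (0.29).

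Of 10 C copies of photosynthesis genes, 3 rose in leaf and 0 fell in N99 (17.2% and 12.2% of all genes tested), and 7 rose and 1 fell in DH12075 (20.8% and 29.5% of all). The list median was 0.30 in both lines. Without N99 cotyledon 2, 1 copy rose and 0 fell in N99 and the median was 0.12. LHCA6, an antenna protein of photosystem I, had 205, 223 and 186 TPM in leaf and 149, 69.5 and 46.5 TPM in cotyledon of N99, and 228, 234 and 229 TPM in leaf and 142, 151 and 106 TPM in cotyledon of DH12075 (BnaC08g032750.3DH). It rose by 1.37 in N99 and 0.80 in DH12075. LSMT (a protein methyltransferase) rose by 1.01 and 0.80. A GAPA2 copy (a subunit of chloroplast glyceraldehyde-3-phosphate dehydrogenase), BnaC05g010950.3DH, rose by 0.98 and 0.31. LHCA6 (1.28) and this GAPA2 copy (0.88) were no longer called in N99 once N99 cotyledon 2 was left out. PSB27, a photosystem II assembly factor, rose in DH12075 (0.58, copy BnaC05g002110.3DH), and PNSB1, a subunit of the chloroplast NADH dehydrogenase-like complex, was the copy that fell there (-0.53).

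The 11 C copies of chloroplast biogenesis genes split. In N99, 4 were higher and 1 lower in leaf (17.2% and 12.2% of all genes tested). In DH12075, 4 were higher and 4 lower (20.8% and 29.5% of all). The N99 counts without N99 cotyledon 2 were 2 higher and 2 lower, and the median was 0.29 in place of 0.50. TOC33, a receptor of the outer-envelope import machinery, had 16.1, 27.5 and 29.0 TPM in leaf and 4.78, 1.96 and 3.13 TPM in cotyledon of N99, and 16.4 to 26.4 TPM in leaf and 4.98 to 5.2 TPM in cotyledon of DH12075. It rose by 2.56 in N99 and 1.87 in DH12075. CHLD, a magnesium chelatase subunit of chlorophyll synthesis, rose by 1.03 and 1.0. FTSH8, a thylakoid protease of photosystem II repair, fell by 1.01 and 1.03 (BnaC05g004880.3DH). A copy for the chloroplast RNA-binding protein AT1G01080 (BnaC05g000800.3DH) rose by 1.15 in N99, a call that was lost without N99 cotyledon 2 (0.96), and PORC (a protochlorophyllide oxidoreductase) rose by 0.78 in DH12075.

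Among 4 clock and light copies, 0 rose and 2 fell in each line, with medians of -0.64 in N99 and -0.28 in DH12075. For this and the groups below, 17.2% of all genes tested rose and 12.2% fell in N99. In DH12075 these shares were 20.8% and 29.5%. LHY, a morning-expressed factor of the circadian clock (BnaC05g000830.3DH), fell by 2.12 in N99 and by 0.87 in DH12075, and BBX24, a factor of light signalling, by 0.94 and 0.41. In N99, 1 of the 4 fell without N99 cotyledon 2. Growth genes gave 1 higher and 0 lower of 7 in N99, and 2 higher and 3 lower of 8 in DH12075, with FLP (a factor that limits stomatal divisions) at -1.21 there. Housekeeping genes gave 0 called of 4 in N99 and 2 lower in DH12075, redox genes 0 of 2 in both lines, hormone genes 1 higher of 5 in N99 and 1 higher of 2 in DH12075, and specialised metabolism 0 of 3 in N99 and 1 lower of 3 in DH12075. The cuticle group had 0 C copies, and the CRU2 copy of the group of other tissues was too low to test.

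The second question was how the lines differ. Over both tissues, 5877 of 22364 C genes were higher in N99 (26.3%, against 25.6% of all genes tested) and 6464 were lower (28.9%, against 29.8%). For A genes these shares were 25.1% and 31.1%. The rule admits genes expressed in 1 line alone, which had to differ. Of 2402 C genes at 1 TPM or more in N99 alone, 2032 were called higher, and of 2345 in DH12075 alone, 2009 were called lower. Among the 17617 C genes at 1 TPM or more in both lines, 3845 were higher in N99 and 4455 lower (47.1% called), against 50.6% called of 17607 A genes. Without N99 cotyledon 2, 6941 C genes were higher in N99 and 6001 lower, so the direction of the balance rested on that library, and it also turned with rescaling (7272 and 6369) and with quantile normalization (7062 and 6628).

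Line effects were uneven among C chromosomes. C01 had 34.8% of its genes higher in N99 and 23.5% lower, while C05 had 23.6% higher and 33.4% lower and C09 23.8% higher and 32.4% lower. For C02 the values were 27.8% and 31.2%, and 32% and 27.8% without N99 leaf 3. Without N99 cotyledon 2, the C chromosomes other than C02 had 28.3% to 39.4% higher and 21.9% to 31.5% lower. Among A chromosomes, A01 had the lowest share higher in N99 (22.8%) and the highest share lower (38.4%). The share of annotated genes expressed also differed between lines on these chromosomes. On C01, N99 expressed 32.1% and DH12075 28.0% of them, and on C02 27.9% and 25.5%. On C05 the values were 29.9% in N99 and 32.5% in DH12075, and on C09 30.2% and 32.4%.

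Genes expressed in 1 line and listed at 0 in all 6 libraries of the other were more frequent on C than on A. Of the 22364 expressed C genes, 294 were expressed in N99 and at 0 in DH12075, and 319 were expressed in DH12075 and at 0 in N99. The A counts were 69 and 132 of 21296. Genes placed on neither subgenome gave 92 and 117 of 2141, a larger share than on C. Over all 45801 expressed genes the counts were 455 and 568. Of the 294, C02 held 115 and C01 111, and no other C chromosome held more than 15. Of the 319, C09 held 108 and C05 63, and the others 11 to 32. On A no chromosome held more than 12 and 27.

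**Figure D3:**
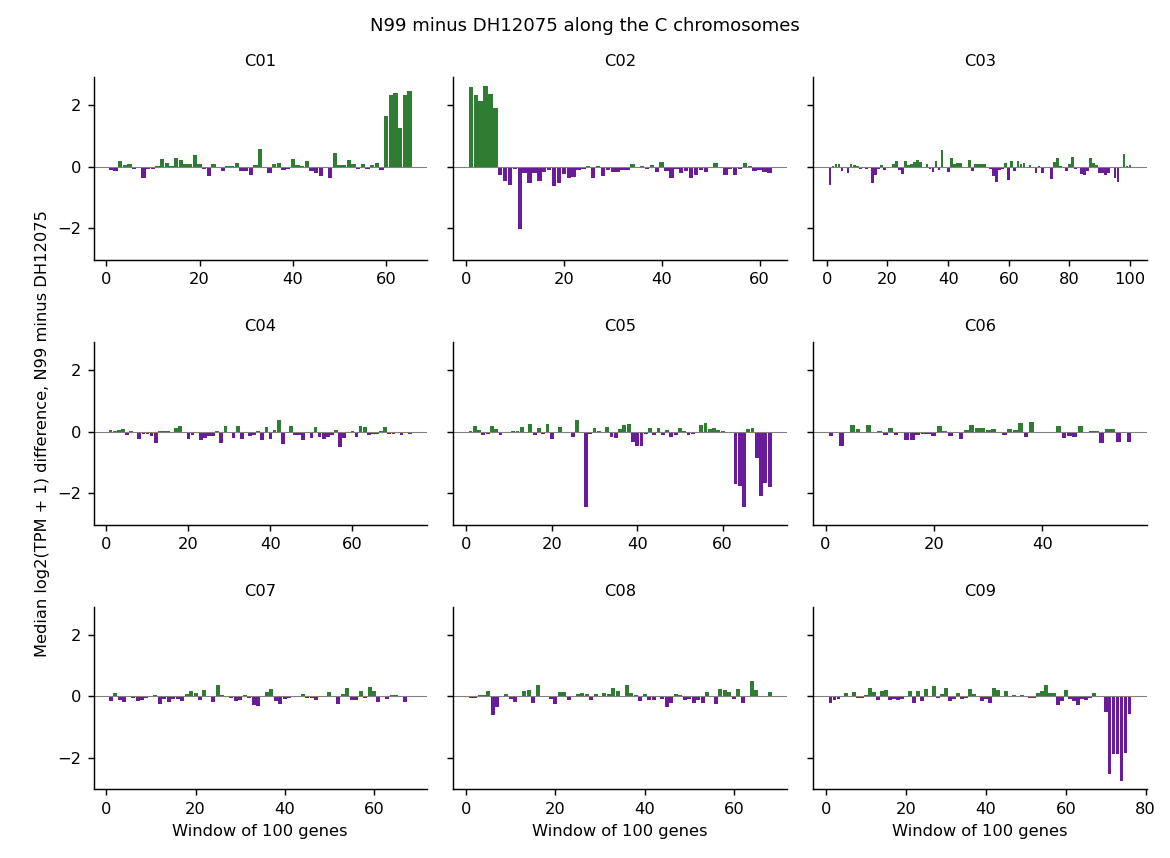
Median difference between N99 and DH12075 on log2(TPM + 1) for the expressed genes of each window of 100 consecutive annotated genes along C01 to C09 (bars in ID order, positive where N99 is higher). The window medians run from -2.75 to 2.64, and the windows far from 0 lie at the end of C01, the start and window 11 of C02, near the end and in window 28 of C05, and near the end of C09.

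These genes were clustered along the chromosomes. Of 640 C windows of 100 genes, 12 held at least 5 genes expressed in N99 and at 0 in DH12075, and these 12 held 203 of the 294 (69.0%). For the opposite pattern, 13 windows held 153 of the 319 (48%). None of 478 A windows held 5 of either kind. The median line difference of a window was at least 1 in 12 C windows and at most -1 in 13, and in 0 A windows, whose medians ran from -0.86 to 0.95. The window with the most genes at 0 in DH12075 was window 61 of C01, with 23, where 43 genes were expressed in N99 and 1 in DH12075. Window 3 of C02 also held 23. For genes at 0 in N99, window 72 of C09 held 23, with 9 genes expressed in N99 and 67 in DH12075.

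Neighbouring windows of this kind formed 5 stretches, which were delimited after their values were seen and are described without a test. At the end of C01, windows 60 to 65 (BnaC01g059520.3DH to BnaC01g065650.3DH) held 605 annotated genes, of which N99 expressed 248 and DH12075 37. Their TPM summed to 1885 to 3245 in the N99 libraries and 314 to 461 in the DH12075 libraries, and the median difference was 2.12. At the start of C02, windows 1 to 6 (BnaC02g000010.3DH to BnaC02g006020.3DH) held 600 genes, of which N99 expressed 244 and DH12075 20. Their TPM summed to 1769 to 3489 in N99, with the lowest value in N99 leaf 3, and to 102 to 222 in DH12075, with a median difference of 2.38. In both stretches every N99 sum was above every DH12075 sum.

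The other 3 stretches were low in N99. Windows 71 to 75 of C09 (BnaC09g071410.3DH to BnaC09g076450.3DH) held 500 genes, of which N99 expressed 27 and DH12075 231, with 88 at 0 in all N99 libraries. Their TPM summed to 119 to 201 in N99 and 2795 to 2979 in DH12075. On C05, windows 63 to 65 held 300 genes, with 34 expressed in N99 and 139 in DH12075, and sums of 304 to 629 and 2709 to 2849 TPM. Windows 68 to 71 held 415 genes, with 87 and 186 expressed and sums of 647 to 1139 and 2524 to 2906 TPM, while windows 66 and 67 between them had medians of 0.08 and 0.12. Single windows of this kind were window 11 of C02 (12 genes expressed in N99 and 44 in DH12075) and window 28 of C05 (3 and 23).

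Beside these stretches, the A windows farthest from 0 were also on few chromosomes. Windows 44, 46 and 47 of the 47 on A01 had medians of -0.75, -0.80 and -0.84, and windows 3 to 6 of A02 of -0.74, -0.82, -0.74 and -0.86. Windows 38, 39, 44 and 45 of the 45 on A05 had medians of 0.68, 0.69, 0.81 and 0.65, and windows 30 to 33 of the 35 on A10 of 0.72, 0.95, 0.70 and 0.84. Window 64 of A09 was at -0.86. So A01 and A02 held windows lower in N99, while C01 and C02 held stretches higher in N99. A05 and A10 held windows higher in N99, while C05 and C09 held stretches lower in N99. A01 was also lower in N99 as a whole (median -0.18). Whether these A windows match the C stretches in position was not tested, since only the ID order was at hand. The part of segment exchange, of gene loss or of sequence differences from the DH12075 transcripts in these stretches was not tested.

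Single C genes of the stretches were at or near 0 in a whole line. BnaC01g064790.3DH had 188, 166 and 132 TPM in leaf and 237, 147 and 225 TPM in cotyledon of N99, against at most 0.112 TPM in DH12075 (7.43 ± 0.15, limma, adjusted p = 2.5e-13). BnaC02g002870.3DH had 234, 220 and 99.8 TPM in leaf and 466, 308 and 487 TPM in cotyledon of N99, with the lowest value in N99 leaf 3, against at most 0.0938 TPM in DH12075 (7.97 ± 0.26, adjusted p = 1.9e-11). BnaC05g063930.3DH had at most 0.207 TPM in N99, against 159 to 188 TPM in DH12075 (-7.34 ± 0.10). BnaC09g075100.3DH had at most 0.11 TPM in N99, against 120 to 239 TPM in DH12075 (-7.38 ± 0.14). In none of the 4 did the lines overlap, but the choice of the largest changes fixes this.

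Of the listed genes, the clock and light group had 1 of 4 C copies higher and 3 lower in N99 (25.6% and 29.8% of all genes tested). Its median was -1.46, against -0.04 for all genes. LHY had 1.44, 0.432 and 1.59 TPM in leaf and 5.27, 7.02 and 13.7 TPM in cotyledon of N99 (BnaC05g000830.3DH). In DH12075 it had 143, 147 and 136 TPM in leaf and 261, 245 and 276 TPM in cotyledon. The difference was -5.48 ± 0.26 (limma, adjusted p = 1.1e-09). GI (GIGANTEA, an evening-expressed clock protein) was higher in N99, at 6.84 to 13 TPM against 2.42 to 3.53 TPM in DH12075 (1.47 ± 0.14, copy BnaC05g023550.3DH). BBX24 was lower in N99 by 1.66 (log2), and PHR1, a photolyase that repairs ultraviolet damage, by 1.25. The time of day at which each line was harvested is not given in the sources used here, and its part was not tested.

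Of 6 C copies of hormone genes, ACO4 and DYL1 reached 1 TPM in both lines and were higher in N99. GA2OX6, ARF19 and PIN7 each had a copy that was tested because N99 reached 1 TPM, at means of 2.36, 3.20 and 1.17 TPM against 0.249, 0.957 and 0.525 TPM in DH12075, so these 3 had to be higher in N99. The sixth, the ARF19 copy BnaC08g032800.3DH, averaged 0.687 TPM in N99 and 0.830 TPM in DH12075 and was too low to test. DYL1, a dormancy-associated protein, had 30.9 to 74.6 TPM in leaf and 59.4 to 223 TPM in cotyledon of N99, and 3.23 to 10.6 TPM in leaf and 1.63 to 2.28 TPM in cotyledon of DH12075 (4.03 ± 0.45, limma, adjusted p = 4.5e-06, copy BnaC05g029720.3DH). ACO4, an enzyme of ethylene synthesis, had 31.3 to 42.2 TPM in leaf and 11.9 to 20.6 TPM in cotyledon of N99, and 4.84 to 7.16 TPM in leaf and 6.24 to 7.71 TPM in cotyledon of DH12075 (1.75 ± 0.23, copy BnaC05g003420.3DH). GA2OX6 inactivates gibberellins, ARF19 is an auxin response factor and PIN7 an auxin efflux carrier.

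For the groups that follow, 25.6% of all genes tested were higher in N99 than in DH12075 and 29.8% lower. Photosynthesis copies gave 0 higher and 3 lower of 10, among them the GAPA2 copy BnaC08g062190.3DH (-0.68) and PNSB1 (-0.62). Chloroplast biogenesis copies split into 4 higher and 4 lower of 11, transport 2 higher and 1 lower of 5, growth 3 higher and 2 lower of 8, and housekeeping 2 higher of 4, with SMT2 (a sterol methyltransferase) at 1.46. Redox gave 1 lower of 2 and specialised metabolism 2 lower of 3, both copies of CCR1 (an enzyme of lignin synthesis). Without N99 cotyledon 2, photosynthesis gave 1 higher and 3 lower, transport 3 higher and 1 lower, and growth 3 higher and 1 lower. Without N99 leaf 3, chloroplast biogenesis gave 3 higher and 4 lower, growth 2 higher and 1 lower, and redox 1 higher and 1 lower. The signs of the medians of the groups nearest to 0 changed with scaling or with a library left out. These were growth, hormone and redox genes in the N99 tissue contrast and chloroplast biogenesis and redox genes in the line contrast.

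Whether the tissue effect itself depended on the line was tested by an interaction term. It was called for 2423 C genes (10.8%, against 10.8% of all genes tested), of which 1706 had the more positive leaf effect in N99 and 717 in DH12075. The A genes gave 2338 (11%). Without N99 cotyledon 2, the C counts were 1387 and 1079, with rescaling 1903 and 1412, and with quantile normalization 1867 and 1587. Without DH12075 cotyledon 1 the 2 counts together were 1440, without DH12075 leaf 1 1566 and without N99 leaf 3 1613. Among the C genes named here, BnaC05g002660.3DH had the largest interaction, 5.03, and it was low in DH12075 leaf alone. Some listed C copies that are not named here were called too.

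Finally, C copies were set against the A copy of the same *A. thaliana* gene within each library. A total of 627 *A. thaliana* genes had exactly 1 C and 1 A copy traced, which need not be each other's homoeologues: 192 such pairs joined C05 with A06, 115 C05 with A10, 87 C08 with A09 and 86 C08 with A08. In N99, with 515 pairs expressed, the C copy was higher in all 6 libraries in 187 (36.3%) and the A copy in 152 (29.5%), and the median log2 ratio of C over A was 0.04. In DH12075, with 510 pairs, the counts were 168 (32.9%) and 178 (34.9%), and the median was -0.02. Without N99 cotyledon 2, 193 of 519 N99 pairs favoured C and 158 favoured A. Pairs were kept only where both copies were traced and the pair was expressed, so they say nothing about the silent C genes.

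**Figure D4:**
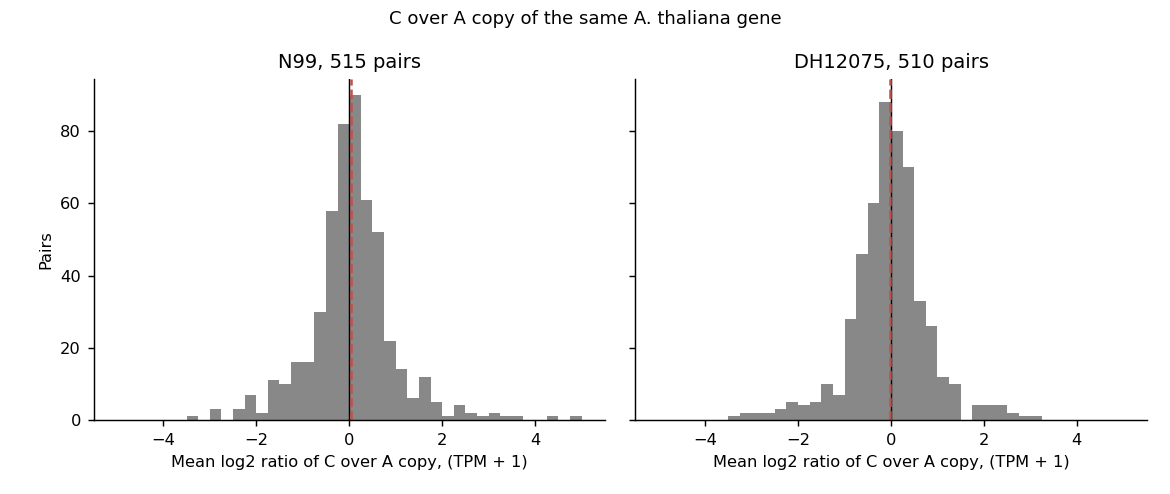
Number of pairs by the mean log2 ratio of C over A copy, on (TPM + 1), in N99 (515 pairs) and DH12075 (510 pairs), with the median as a dashed line. Both distributions are centred near 0, with medians of 0.04 and -0.02.

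Pairs with a summed mean of at least 10 TPM and the same copy higher in all 12 libraries were ranked by their ratio. The ratios here are means over the 12 libraries of both lines. The largest in favour of C were those of AT1G23360, AT1G22310 and AT1G11330. For AT1G23360, BnaC08g035620.3DH had 4.1 to 16.6 TPM in N99 and 6.76 to 14.9 TPM in DH12075, while BnaA08g028750.3DH had at most 0.492 TPM in N99 and 0.931 TPM in DH12075 (log2 ratio 3.11). For AT1G22310, BnaC07g024800.3DH had 10.5 to 20.6 TPM over the 12 libraries, while BnaA07g014500.3DH had 1.13 to 1.78 TPM. The largest in favour of A were those of AT1G14450, AT1G16250 and AT1G17360, with log2 ratios of -3.10, -2.93 and -2.76. For AT1G14450, BnaC08g029920.3DH had 1.1 to 5.79 TPM, while BnaA06g011130.3DH had 16.4 to 45.8 TPM. These pairs were chosen for their ratio.

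Where both copies of a pair were called between tissues, they were nearly always called the same way, but most pairs had 1 call or none. Among 398 pairs tested in N99, 44 had both copies higher in leaf, 39 both lower and 0 in opposite directions, while 66 had 1 copy called and 249 neither. Among 389 pairs tested in DH12075, 60 had both higher, 77 both lower and 3 opposite, while 97 had 1 copy called and 152 neither. Of all genes tested, 17.2% were higher in leaf and 12.2% lower in N99, and 20.8% and 29.5% in DH12075. The C and A fold changes differed by less than 1 (log2) in 98% of N99 and 95.6% of DH12075 pairs. Most fold changes were small, with a median absolute value over all genes tested of 0.40 in N99 and 0.43 in DH12075. Unrelated genes could therefore often differ by less than 1 too, and they were not compared. Across pairs, which share their libraries and are not independent replicates, Pearson's r of the C and A fold changes was 0.87 in N99 and 0.84 in DH12075.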

How the data were processed

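The *B. napus* libraries of the series were analysed: 3 biological replicates each of leaf and cotyledon of N99 and DH12075. According to the methods, the authors trimmed the reads with Trimmomatic 0.32, quantified them with Salmon 1.10.0 against the DH12075 transcripts and summed them per gene with tximport. The TPM deposited by the authors are unfiltered and not log transformed, in a table for each line. The labels name a TruSeq kit and the methods the Illumina Stranded mRNA Prep. TPM hold no depth, so the spread between replicates is the only measure of precision.

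Genes were tested with limma 3.58.1 (R 4.3.3, lmFit and eBayes with trend, two-sided) on log2(TPM + 1), because the test named in the methods needs counts, with Benjamini-Hochberg adjustment over all tested genes at 0.05. Tissues were compared within each line for genes that averaged 1 TPM or more there, and lines over all 12 libraries with tissue as a covariate, for genes that did so in either line. The interaction of line and tissue was a further fit. The steps were tested on simulated data. Counts and figures used Python 3.11.15 with numpy 2.4.6, pandas 2.3.3, scipy 1.17.1 and matplotlib 3.10.9.

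Windows are 100 consecutive annotated genes in ID order, with a short last window joined to the one before. No coordinates are given, since 0 of the IDs were found in the gene table at hand, which is of the line Da-Ae. IDs were traced to *A. thaliana* genes where the TPM of up to 4 IDs, with a constant weight per ID and a scaling factor per library, summed to the study's expression of that gene in the DH12075 libraries to within 3e-06 TPM per unit of weight. That table was used as a key only. Of 1731 such genes above 0 in at least 3 libraries, 1190 were traced, 1079 of them with a C copy. With the libraries shuffled, 1 was traced. Part of the search looks only near genes already traced, so the shuffled run hardly tested that part. Of 200 simulated sums, 200 were traced to the right IDs. These sums were built from IDs already traced, so they do not cover the genes that were not traced.

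Named genes are the traced copies of listed genes at 10 TPM or more with the largest changes of their list, the 2 C genes with the largest rise and the 2 with the largest fall in each contrast without overlap, the 4 most abundant C genes of each line, the 3 most extreme pairs each way and the 6 windows with the most genes expressed in 1 line. Marker genes, genes beside the threshold, GA2OX6, ARF19, PIN7 and the A copies of CIPK9 were named outside this rule. The members, lists and alternatives were chosen with earlier results of these data known. Alternatives were another threshold or pseudocount, other filters, quantile normalization, rescaling without the 10 most abundant genes, the replicate number as a block, single tissues and each replicate left out.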

Additional observations from a re-analysis of the deposited data

Results flagged for a closer look

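On log2(TPM + 1), the difference between leaf and cotyledon itself differed between the lines for 6 of the C genes named in the report. These were called by the interaction term of the limma fit, with Benjamini-Hochberg adjustment over all tested genes. The term was called for 10.8% of all genes tested, so 6 calls among the named genes are not read as an excess. A positive value means a more positive leaf effect in N99 than in DH12075. BnaC05g002660.3DH had an interaction of 5.03 ± 0.56 (SE, adjusted p = 0.00022). BnaC03g012330.3DH had 2.39 ± 0.53 (adjusted p = 0.012), with leaf above cotyledon in every library of both lines. ACO4 (BnaC05g003420.3DH) had 1.30 ± 0.30 (adjusted p = 0.014), with leaf above cotyledon in every N99 library and overlapping tissues in DH12075. BnaC03g008070.3DH had -1.90 ± 0.29 (adjusted p = 0.0016) and BnaC09g024050.3DH -2.62 ± 0.30 (adjusted p = 0.00023). In both lines the first was at most 0.138 TPM in leaf and the second at most 0.349 TPM in cotyledon. With 1 tissue near 0, these 2 values mostly follow the line difference in the other tissue. They do not show that the ratio of leaf to cotyledon differed. DYL1 (BnaC05g029720.3DH) had -2.23 ± 0.65 (adjusted p = 0.045). These genes were named for their size of change in other contrasts of the same libraries, so their interactions are not an independent sample of the C genes.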

How the results depend on the processing

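Raising the filter to a mean of 5 TPM gave 3375 called C genes in N99 leaf against cotyledon, 5712 in DH12075 leaf against cotyledon, 6848 in N99 against DH12075 and 1405 in the interaction, since fewer genes were tested. A further minimum of 1 on the size of the log2 fold change gave 3228, 3672 and 5219 in the first 3. With each replicate left out, the counts ran from 4237 to 5516, 7488 to 11067, 11382 to 12942 and 1440 to 3061. The replicate number was also used as a replicate block. It gave 5198, 8884, 11879 and 2298 calls. Same-numbered libraries did not deviate together (correlations of -0.31 to -0.11 in N99 and -0.08 to 0.19 in DH12075). With 3 replicates per group, these values cannot decide whether the numbers pair the samples. Expressed C genes were 40.1% at a mean of 0.5 TPM, 18.3% at 5 TPM and 37.0% where the mean of a line and tissue sufficed, and 34.7% to 35.2% with a replicate left out. C minus A was -10.2 and -5.82 percentage points at 0.5 and 5 TPM, and -9.71 to -9.63 with a replicate left out. C genes expressed in 1 line and at 0 in the other numbered 926 at 0.5 TPM and 184 at 5 TPM, against 613 at 1 TPM. With copies summed, the C side was higher in 275 of 844 genes in DH12075, and the A side in 296. Of 990 values of called named genes under alternatives, 928 kept their direction and call, 62 were no longer called and 0 changed direction. The percent expressed, the genes at 0 in 1 line and the N99 pairs without N99 cotyledon 2 were added after the data were seen.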
